A study of Mus musculus with 17 samples.

Results

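The genes described here are 8 markers of perivascular macrophages: Mrc1, Cd163, Lyve1, Pf4, F13a1, Cbr2, Ms4a7 and Stab1. They were picked by symbol from a table of 42687 genes, and all 8 had a row and passed the filter on low counts, which left 18753 genes. RNA had been sequenced from microvessels of the cerebral cortex of mice 10 to 11 months old, spun down in dextran. The label for cell type names endothelial cells, pericytes and astrocytic endfeet, and does not name macrophages. Mice were wild type (WT) or of the amyloid model APP/PS1, whose genotype label is APP and which carries transgenes for mutant amyloid precursor protein and presenilin 1. All received intraperitoneal peptide at 10 mg/kg on every second day for 2 weeks, either gp91-ds-tat, which blocks the superoxide-producing oxidase NOX2, or its control sgp91-ds-tat. The treatment labels read only NOX2 and SC; they were taken here as the inhibitor and the control peptide, and every direction given for the inhibitor rests on that reading. Of the 17 libraries, WT supplied 5 under control peptide (here WT_SC) and 5 under inhibitor (WT_NOX2), and APP/PS1 supplied 2 under control peptide (APP_SC) and 5 under inhibitor (APP_NOX2). The extraction protocol speaks of ipsilateral cortices taken after surgery, and no group differs by surgery in the labels. The labels say neither what drives the transgenes nor whether each library is 1 mouse, so p-values measure only the spread between these samples, which may be technical.

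Perivascular macrophages are long-lived macrophages that lie outside the endothelium of brain vessels, in the space between the vessel wall and the endfeet of astrocytes. They depend on the receptor CSF1R, take up material that passes the vessel wall, and share most marker genes with the macrophages of the meninges and choroid plexus. In amyloid-bearing mice they are known for taking up vascular amyloid and as a source of NOX2-derived superoxide at the vessel. Mrc1 (mannose receptor, CD206), Cd163 (receptor for haptoglobin-bound haemoglobin), Lyve1 (hyaluronan receptor) and Stab1 (stabilin-1, a scavenger receptor) act at the cell surface in uptake. Pf4 (the chemokine CXCL4) and F13a1 (the A subunit of coagulation factor XIII) are made for release or for crosslinking of matrix. Cbr2 is a carbonyl reductase and Ms4a7 a membrane protein of the MS4A family. Some of the 8 are also made elsewhere, Pf4 in platelets and megakaryocytes and Lyve1 in lymphatic endothelium.

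Libraries held between 7316503 and 17862965 counts, with a median of 11342154, and 0 of 136 pairs of libraries held identical values. App and Prnp, whose levels check the genotype label, rose in APP/PS1 over both peptides, by 0.73 on the log2 scale for App (adjusted p = 0.00631, edgeR's quasi-likelihood test) and by 1.33 for Prnp (adjusted p = 3.79e-06). The labelled cell types were present. Levels in CPM (counts scaled to a common library size, here after TMM scaling) averaged 258 ± 73.6 (SD, n = 17) for the endothelial gene Cldn5, 160.5 ± 24.9 (SD, n = 17) for the pericyte gene Pdgfrb and 108 ± 33.7 (SD, n = 17) for the endfoot gene Aqp4. RNA of neurons (Snap25, 446 ± 85.9 CPM) and choroid plexus (Ttr, 10.5 to 7381 CPM) was present as well. The Y-linked gene Ddx3y was at 47.7 to 57.8 CPM in 7 libraries and at 0 to 5.39 CPM in 10; the labels give no sex. Both kinds occurred in every group, in unequal shares. The 7 were 3 of WT_SC, 2 of WT_NOX2, 1 of APP_SC and 1 of APP_NOX2. Xist, the RNA that coats an inactive X chromosome, was at 5614 to 10174 CPM in those 10 and at 13.5 to 668 CPM in those 7. Of the 7, replicates 2 and 3 of WT_SC and replicate 3 of APP_NOX2 held both RNAs, with Xist at 593, 526 and 668 CPM. Of the 10, replicate 3 of WT_NOX2 had the highest Ddx3y level (5.39 CPM) and the lowest Xist level (5614 CPM). A pair of WT libraries, replicate 1 of WT_SC and replicate 3 of WT_NOX2, stood apart from the other 15 in Lyve1, Cd163 and several genes outside the markers. Genotype changes of Lyve1, Cd163, Ms4a7 and Mrc1 and the correlations between markers are given with and without them. Other results, such as the spread between libraries and the relations with lists of other genes, are mostly given only with them.

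Mrc1, Cd163 and F13a1 went up and down together from library to library. The sequences before their start sites are shown as a description, from RefSeq on GRCm38.p6. Whether these sequences have a part in that pattern was not tested. RefSeq held promoters for 7 of the 8 genes, 9 promoters in all, each of 250 bases before and 50 bases after a start; for F13a1 the outer of its 2 starts is printed. Capitals mark matches, on either strand, to GAGGAA, the core bound by the macrophage factor PU.1 and other ETS proteins, and to AGAACA, the half-site of the glucocorticoid receptor. The lines give the 250 bases before the start, 5′ to 3′ on the gene's own strand: Mrc1 at chr2:14229164-14229413 on the plus strand, Cd163 at chr6:124304401-124304650 on the plus strand and F13a1 at chr13:37050245-37050494 on the minus strand.
Mrc1: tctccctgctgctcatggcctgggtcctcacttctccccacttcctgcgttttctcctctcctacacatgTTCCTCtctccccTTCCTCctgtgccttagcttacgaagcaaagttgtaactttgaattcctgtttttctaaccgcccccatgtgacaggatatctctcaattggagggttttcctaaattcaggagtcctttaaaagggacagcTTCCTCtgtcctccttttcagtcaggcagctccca
Cd163: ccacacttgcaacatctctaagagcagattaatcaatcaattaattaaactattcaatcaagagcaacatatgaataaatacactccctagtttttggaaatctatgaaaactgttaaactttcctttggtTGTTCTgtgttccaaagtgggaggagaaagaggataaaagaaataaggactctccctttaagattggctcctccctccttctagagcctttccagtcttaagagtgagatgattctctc
F13a1: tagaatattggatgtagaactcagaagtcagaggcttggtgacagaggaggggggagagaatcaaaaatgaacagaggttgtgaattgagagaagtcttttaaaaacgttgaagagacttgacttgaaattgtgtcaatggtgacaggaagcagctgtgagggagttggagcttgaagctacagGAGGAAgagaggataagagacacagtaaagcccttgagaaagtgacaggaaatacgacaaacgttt
In the full windows GAGGAA was found in 7 of the 9 promoters, which belong to 6 of the 7 genes, and in 28.3% of all 32851 promoters of the same length. AGAACA was found in 2 of the 9, those of Cd163 and of 1 start of Ms4a7, and in 19.0% of all. No promoter of these genes held both. A match is a description of the letters and not a site of binding.

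Per length of transcript the receptors Stab1 and Mrc1 were the most abundant of the markers and Ms4a7 the least. Mean levels in CPM per kilobase of exon over the 17 libraries were 9.16 ± 2.39 (SD) for Stab1, 5.41 ± 1.49 for Mrc1 and 2.72 ± 1.03 for Pf4. F13a1 had 1.86 ± 0.552, Cd163 1.77 ± 0.802, Lyve1 1.44 ± 1.05, Cbr2 1.44 ± 0.572 and Ms4a7 0.550 ± 0.186 CPM per kilobase. Stab1 was thus 16.7 times Ms4a7. Stab1 exceeded Mrc1 in 15 of 17 libraries, Mrc1 exceeded Pf4 in 17 of 17, and Cbr2 exceeded Ms4a7 in 16 of 17. The neighbours from Pf4 down to Cbr2 differed by less than the SD of the higher one, and Lyve1 exceeded Cbr2 in 6 of 17 libraries. All 8 were above the level of 3 counts (0.174 to 0.390 CPM, depending on the library) in every library, the lowest being 5 counts of Cbr2.

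The mannose receptor gene Mrc1 (ENSMUSG00000026712; GRCm38 chromosome 2, 14229392 to 14332057) had nearly the same mean in all groups. Its CPM were 41.3, 20.8, 28.7, 44.0 and 25.7 in the 5 WT_SC libraries and 33.6, 33.8, 52.6, 31.6 and 28.05 in WT_NOX2. They were 28.4 and 39.6 in APP_SC and 41.8, 46.8, 21.7, 24.0 and 43.5 in APP_NOX2. Every group held both low and high libraries, and the means were 32.1 ± 10.1 (SD, n = 5), 35.9 ± 9.60 (SD, n = 5), 34.0 ± 7.92 (SD, n = 2) and 35.6 ± 11.8 (SD, n = 5). In these bulk libraries, fewer macrophages and less RNA per macrophage cannot be told apart.

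Cd163 (ENSMUSG00000008845; chromosome 6, 124304656 to 124330527), which encodes the haemoglobin scavenger receptor, ranged more widely in WT than in APP/PS1. Its CPM were 16.3, 4.40, 6.81, 11.8 and 8.05 in WT_SC and 8.70, 7.52, 22.4, 9.49 and 5.67 in WT_NOX2. They were 8.13 and 11.1 in APP_SC and 11.7, 8.27, 6.08, 6.71 and 11.4 in APP_NOX2. The highest value of each WT group came from the pair of libraries that stood apart, and both exceeded the 4.40 to 11.8 CPM of the other 15. Without regard to peptide, the means were 10.1 ± 5.48 (SD, n = 10) in WT and 9.05 ± 2.32 (SD, n = 7) in APP/PS1.

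Lyve1 (ENSMUSG00000030787; chromosome 7, 110850607 to 110863239), the hyaluronan receptor, was the most variable marker. Its CPM were 11.7, 2.72, 2.54, 3.48 and 2.93 in WT_SC and 5.14, 4.08, 12.2, 2.86 and 1.17 in WT_NOX2. They were 3.28 and 2.58 in APP_SC and 3.29, 3.69, 3.80, 1.63 and 4.51 in APP_NOX2. The same 2 WT libraries were far above the rest, whose median was 3.28 CPM, and the remaining WT values lay on both sides of the APP/PS1 values. The means were 4.88 ± 3.87 (SD, n = 10) in WT and 3.25 ± 0.926 (SD, n = 7) in APP/PS1.

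Stab1 (ENSMUSG00000042286; chromosome 14, 31139013 to 31168641), the stabilin-1 gene, had the highest level of the 8 and did not share that pattern. Its CPM were 62.4, 66.2, 80.9, 139.9 and 74.7 in WT_SC and 102, 86.7, 83.6, 110.5 and 83.7 in WT_NOX2. They were 74.1 and 120.5 in APP_SC and 89.6, 133, 71.9, 89.8 and 133 in APP_NOX2. Replicate 1 of WT_SC was the lowest of all 17 for Stab1, and replicate 4 of WT_SC the highest. Mean levels were 89.0 ± 23.0 (SD, n = 10) in WT and 102 ± 26.7 (SD, n = 7) in APP/PS1.

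F13a1 (ENSMUSG00000039109; chromosome 13, 36867178 to 37050244), which encodes the transglutaminase subunit of factor XIII, followed Mrc1 from library to library. Its CPM were 14.5, 7.75, 9.75, 14.9 and 11.5 in WT_SC and 11.97, 12.1, 22.3, 12.99 and 8.70 in WT_NOX2. They were 12.1 and 12.97 in APP_SC and 14.8, 15.2, 8.03, 7.71 and 16.3 in APP_NOX2. As for Mrc1, replicate 3 of WT_NOX2 was the highest, and replicates 3 and 4 of APP_NOX2 were near the bottom. Pf4 (ENSMUSG00000029373; chromosome 5, 90772435 to 90773383), the gene of the chemokine CXCL4, rested on 11 to 42 counts per library. Its means were 1.95 ± 0.650 CPM (SD, n = 10) in WT and 1.98 ± 0.916 CPM (SD, n = 7) in APP/PS1, with a range of 0.983 to 3.36. The platelet gene Ppbp, its neighbour in function, was at 2.67 ± 2.97 CPM (SD, n = 17).

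Ms4a7 (ENSMUSG00000024672; chromosome 19, 11321039 to 11336146) had the largest distance between the genotypes in proportion to its spread. Its CPM were 1.16, 2.10, 1.52, 2.41 and 1.99 in WT_SC and 1.59, 2.92, 1.80, 2.73 and 2.25 in WT_NOX2. They were 3.40 and 3.16 in APP_SC and 4.11, 3.40, 1.74, 2.00 and 3.36 in APP_NOX2. In 5 of the 7 APP/PS1 libraries the value was above every WT library, and in the other two, replicates 3 and 4 of APP_NOX2, it lay among the WT values. The means were 2.05 ± 0.552 (SD, n = 10) in WT and 3.02 ± 0.846 (SD, n = 7) in APP/PS1, from 15 to 65 counts per library. Cbr2 (ENSMUSG00000025150; chromosome 11, 120729489 to 120732114), the carbonyl reductase, ranged from 0.454 to 3.16 CPM on 5 to 47 counts, with means of 1.86 ± 0.683 (SD, n = 10) in WT and 1.98 ± 0.907 (SD, n = 7) in APP/PS1.

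The first comparison asks whether these markers differ by genotype. Over both peptides, 0 of 8 passed an adjusted p of 0.05 in edgeR's quasi-likelihood test, where 0.587% of the 18753 genes passed (110 genes, 105 higher and 5 lower in APP/PS1). At an unadjusted p under 0.05, 1 of 8 was called, against 6.38% of all genes. For 0 of 8 did every APP/PS1 library lie on 1 side of every WT library, which held for 0.272% of genes. The median log2 change of the 8 was 0.02, and that of all genes 0.00; 5 of the 8 were above 0, against 50.7% of all genes.

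The log2 change of Ms4a7 by genotype was 0.57 ± 0.20 (SE; 95% interval 0.14 to 0.99), a ratio of 1.48, with an unadjusted p of 0.0116 and an adjusted p of 0.502. That is the smallest adjusted p of any marker in any comparison. Leaving out each library in turn, its change stayed between 0.48 and 0.66 and its adjusted p between 0.255 and 0.986. Lyve1 had the largest change in the other direction, -0.64 ± 0.39 (SE; interval -1.46 to 0.19; adjusted p = 0.874). For Mrc1 the change was 0.02 ± 0.18 (SE; interval -0.37 to 0.41), so the data are compatible with ratios of APP/PS1 to WT from 0.776 to 1.33. F13a1 had -0.04 (interval -0.45 to 0.37), Stab1 0.17 (interval -0.17 to 0.51) and Cd163 -0.17 (interval -0.74 to 0.39). Pf4 had 0.02 (interval -0.55 to 0.60) and Cbr2 0.08 (interval -0.54 to 0.70). An interval that spans 0 leaves both directions possible and does not show that a level was the same.

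**Figure D1:**
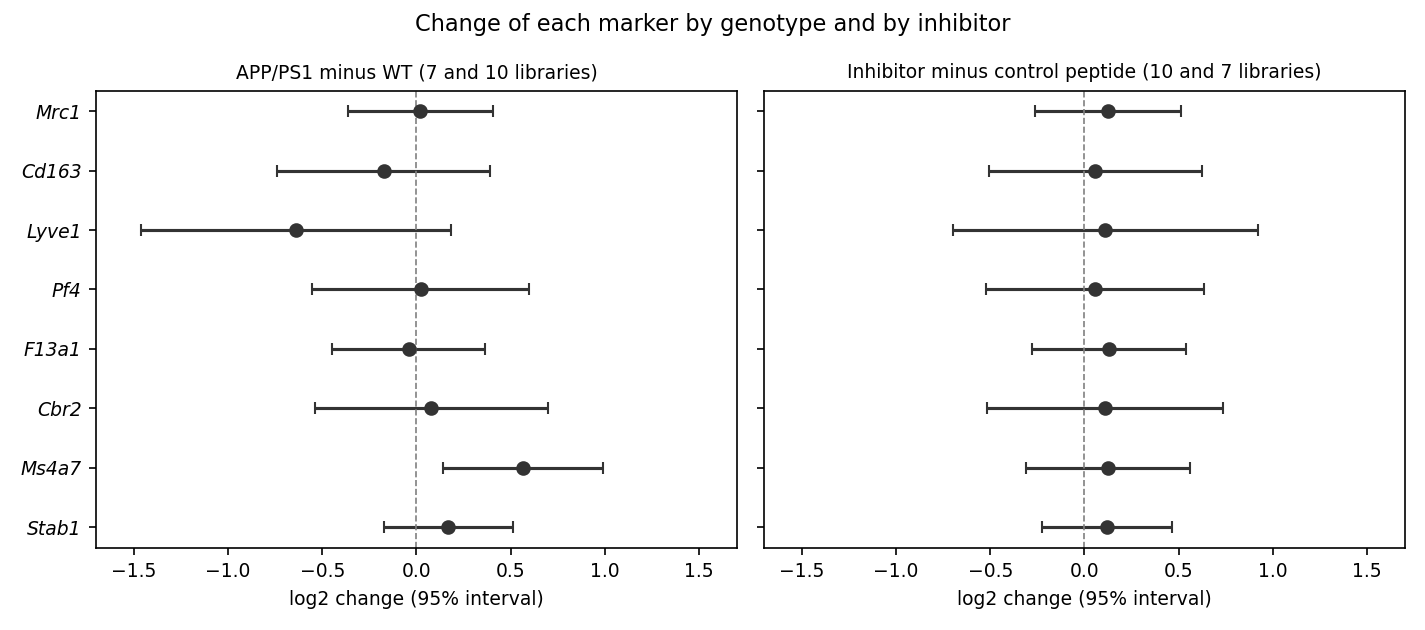
Log2 change of each marker (points) with its 95% interval (bars) for APP/PS1 against WT, left, and for inhibitor against control peptide, right, from the additive model over 17 libraries. The interval of Ms4a7 by genotype (0.14 to 0.99) lies above 0 before adjustment for the number of genes, all others span 0, and none passed after adjustment.

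Within the mice given control peptide, where APP/PS1 has 2 libraries, 0 of 8 markers passed, against 0.0533% of all genes, and at an unadjusted p under 0.05 it was 1 of 8 against 3.97%. Ms4a7 had a log2 change of 0.86 ± 0.33 (SE; unadjusted p = 0.0183), the other markers lay between -0.72 (Lyve1) and 0.50 (Cbr2), and all adjusted p-values of the 8 rounded to 1.00. Among the mice given inhibitor, 0 of 8 passed, against 0.181% of all genes (0 of 8 against 3.38% at an unadjusted p under 0.05), and the changes ran from -0.59 for Lyve1 to 0.39 ± 0.26 (SE) for Ms4a7. The test of the difference between those genotype effects, the interaction, passed for 0 of 8, against 0% of all genes (0 of 18753 by edgeR, with 158 at an unadjusted p under 0.05, which is 0.843% and 0 of the 8). For Ms4a7 the interaction was -0.47 ± 0.42 (SE; interval -1.35 to 0.42), and for Cbr2, the largest, -0.67 ± 0.61 (SE; interval -1.96 to 0.62).

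The second comparison asks whether the NOX2 inhibitor changed the markers. Over both genotypes 0 of 8 passed, and 0% of all genes did (0 of 18753 by edgeR, with 396, or 2.11%, at an unadjusted p under 0.05, and 0 of the 8). All 8 log2 changes were small and above 0, from 0.06 for Pf4 to 0.13 for F13a1, with a median of 0.11, while 9645 of 18753 genes were above 0 and their median was 0.00. The 8 are not independent, since several varied together. For Mrc1 the change was 0.13 ± 0.19 (SE; interval -0.26 to 0.51), for Cd163 0.06 ± 0.27 (SE; interval -0.51 to 0.62) and for Stab1 0.12 ± 0.16 (SE; interval -0.22 to 0.46). Within WT, 0 of 8 passed, against 0% of all genes (252, or 1.34%, at an unadjusted p under 0.05, and 0 of the 8), with changes from -0.09 for Pf4 to 0.37 for Cbr2. Within APP/PS1, again 0 of 8 passed, against 0% of all genes (338, or 1.8%, at an unadjusted p under 0.05, and 0 of the 8), with changes from -0.30 for Cbr2 to 0.29 for Pf4. These 2 comparisons contrast different libraries, but they come from the same fit and share its estimate of spread. The 2 APP_SC libraries limit the second, where the interval of Lyve1 ran from -1.23 to 1.63.

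In replicate 1 of WT_SC and replicate 3 of WT_NOX2, the pair that stood apart, Lyve1 was at 11.7 and 12.2 CPM and at 1.17 to 5.14 CPM in the other 15 libraries. Cd163 was at 16.3 and 22.4 CPM against 4.40 to 11.8. The other 6 markers did not separate these libraries: Mrc1 was at 41.3 and 52.6 CPM against 20.8 to 46.8 in the rest, and Ms4a7 at 1.16 and 1.80 CPM against 1.52 to 4.11. The same pair was highest in Fkbp5, a gene known to be induced by glucocorticoids, at 65.7 and 95.8 CPM against 8.71 to 29.2. Likewise Plin4 (170.1 and 148 CPM against 7.60 to 37.7), Angptl4 (49.5 and 41.4 against 2.17 to 8.85), Hif3a (117 and 86.4 against 9.29 to 39.0) and Map3k6 (70.0 and 76.7 against 5.83 to 43.6) were highest there. These 5 genes were chosen after their values were seen. The choroid plexus gene Ttr was at 10.5 and 198 CPM in the pair, with 138 to 7381 CPM elsewhere. Cd163 is itself a known glucocorticoid-induced gene of macrophages; the part of any of these in the Lyve1 and Cd163 levels was not tested.

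**Figure D2:**
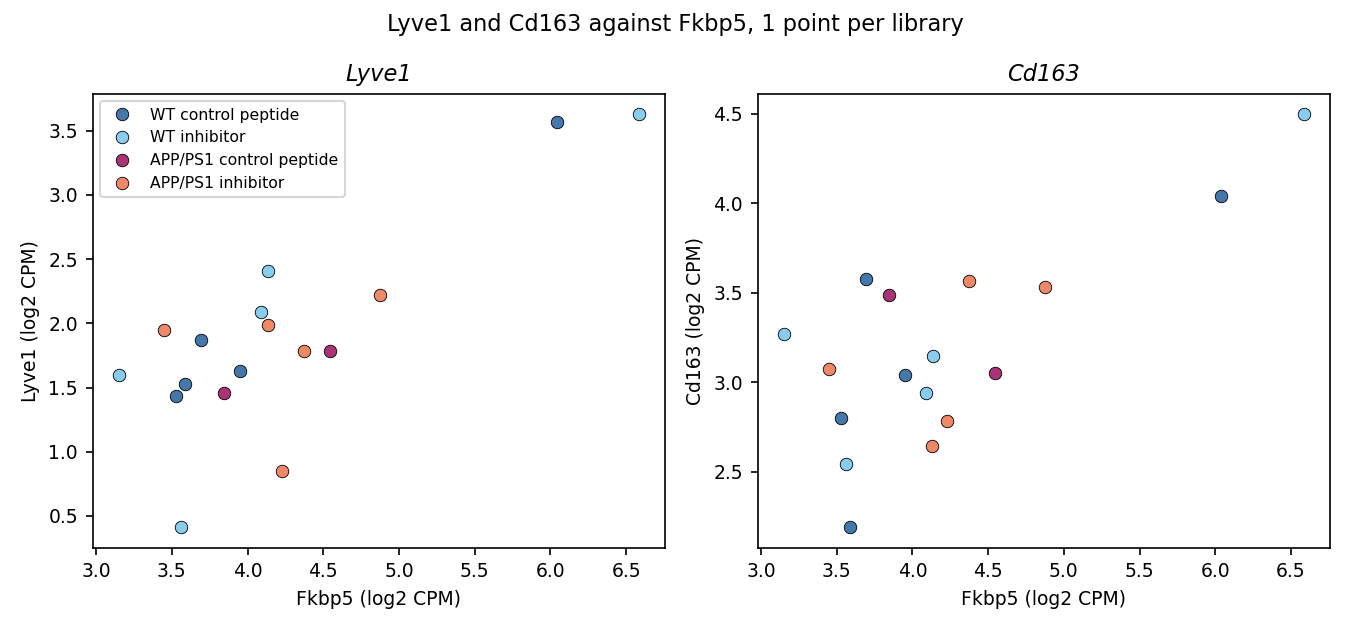
Lyve1 (left) and Cd163 (right) against Fkbp5, 1 point per library coloured by group, all as log2 CPM. Replicate 1 of WT with control peptide and replicate 3 of WT with inhibitor lie alone at the upper right of both panels, and since they form a separate cluster no correlation is given.

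Without that pair of libraries the genotype change of Lyve1 went from -0.64 to 0.02 (interval -0.51 to 0.55; adjusted p = 0.998, edgeR) and that of Cd163 from -0.17 to 0.23 (interval -0.17 to 0.64; adjusted p = 0.913). The genotype change of Ms4a7 without them was 0.47 (interval 0.04 to 0.89; adjusted p = 0.723), and that of Mrc1 0.17 (interval -0.20 to 0.54; adjusted p = 0.921). The pair was picked after the values were seen and holds the 2 highest levels of Lyve1 and of Cd163, both in WT. Leaving it out had to raise the genotype changes of these 2 genes, so their refits are a description. Over all 17 libraries the median of Lyve1 was 3.21 CPM in WT (n = 10) and 3.29 CPM in APP/PS1 (n = 7). Relative to genes of like abundance, the spread between libraries of a group was wide for most markers over all 17 libraries, the pair included. Without the pair this spread was not computed. The SE of the genotype change went from 0.39 to 0.25 for Lyve1 and from 0.27 to 0.19 for Cd163 when the pair was left out. The biological coefficient of variation was 0.525 for Lyve1 and 0.376 for Cd163, above 99.5% and 99% of the 1000 genes nearest in level. It was 0.265 for Mrc1 (above 96.6% of such genes), 0.272 for F13a1 (95%), 0.236 for Stab1 (95.7%), 0.367 for Cbr2 (91.6%) and 0.338 for Pf4 (88%). For Ms4a7 it was 0.234, near the middle (54.1%).

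Whether the markers vary together was asked with log2 CPM as deviations from the group mean, over 17 libraries, with 100000 permutations within groups and adjustment over the 28 pairs. Pearson's r was above 0 in 24 of 28 pairs, with a median of 0.42, and 6 pairs passed an adjusted p of 0.05. The closest pair was Mrc1 with F13a1 (r = 0.93, permutation p = 9.0e-05, adjusted 0.00126; rho = 0.89). Cd163 with F13a1 had r = 0.90 (permutation p = 2.0e-05, adjusted 0.00056; rho = 0.90) and Mrc1 with Cd163 r = 0.85 (permutation p = 0.00022, adjusted 0.00205; rho = 0.85). Adjusted p-values of rho for these 3 pairs were 0.0035, 0.00168 and 0.00448. These 3 also passed after leaving out any 1 library, and without the 2 libraries farthest from the median of the first gene r was 0.92, 0.88 and 0.84.

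The 3 other pairs that passed all involved Lyve1 and were less stable when libraries were left out. Cd163 with Lyve1 had r = 0.77 (permutation p = 0.00419, adjusted 0.0284; rho = 0.55), Lyve1 with F13a1 r = 0.71 (permutation p = 0.00507, adjusted 0.0284; rho = 0.62) and Mrc1 with Lyve1 r = 0.60 (permutation p = 0.0104, adjusted 0.0486; rho = 0.58). Adjusted p-values of rho were 0.170, 0.102 and 0.110, so by rank none of the 3 passed. With 1 library left out at a time, Cd163 with Lyve1 and Lyve1 with F13a1 each passed in 13 of 17 runs. Mrc1 with Lyve1, which was close to the threshold, passed in 4 of 17. Leaving out replicate 4 of APP_NOX2, or replicate 3 or 5 of WT_NOX2, each left 3 pairs past the threshold in place of 6. Without the 2 libraries farthest from the median of the gene named first r was 0.51, 0.53 and 0.63. Without the 2 libraries highest in Lyve1, r was 0.44, 0.57 and 0.39 with adjusted permutation p-values of 0.129, 0.0655 and 0.119. In that same set of 15 libraries 8 pairs passed: the 3 among Mrc1, Cd163 and F13a1, and 5 that did not pass over all 17. Of those 5, Stab1 passed with Mrc1 (r = 0.86, adjusted permutation p = 0.0145), F13a1 (r = 0.75, adjusted 0.0412) and Cd163 (r = 0.75, adjusted 0.0446). Cbr2 passed with F13a1 (r = 0.68, adjusted permutation p = 0.0446) and Pf4 with Lyve1 (r = 0.60, adjusted 0.0446), where r over all 17 was 0.59 and 0.03. Over all 17 libraries Stab1, Cbr2, Pf4 and Ms4a7 passed with no other marker, and the closest of their pairs was Pf4 with Stab1 (r = 0.68, adjusted permutation p = 0.0643). With group means not removed, Pf4 passed with Stab1 (adjusted permutation p = 0.0354), and Cbr2 with F13a1 (adjusted 0.0435) and Mrc1 (adjusted 0.0445). The r of Ms4a7 over all 17 ran from -0.28 with Lyve1 to 0.47 with Stab1.

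**Figure D3:**
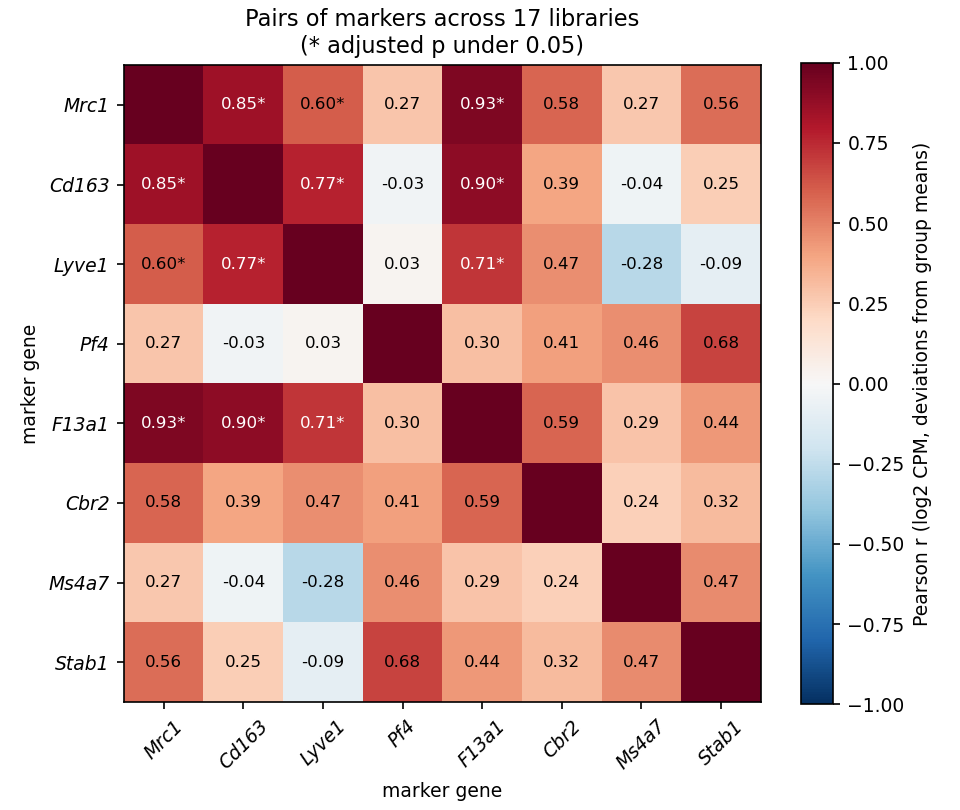
Pearson's r between each pair of markers across 17 libraries (colour scale from -1 to 1; log2 CPM as deviations from the group mean), with an asterisk at an adjusted permutation p under 0.05. Mrc1, Cd163 and F13a1 form a block of r between 0.85 and 0.93, and Ms4a7 passes with no other marker.

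Each marker was also set against the mean log2 CPM of 18 lists of other genes that mark cells of the brain and blood, 144 relations in all, of which 10 passed the adjusted permutation p. Mrc1 passed with the other border macrophage genes (r = 0.82, adjusted permutation p = 0.0259), fibroblast markers (r = 0.79, adjusted 0.0259) and mural cell markers (r = 0.78, adjusted 0.0490). F13a1 passed with the other border macrophage genes (r = 0.74, adjusted permutation p = 0.0490). Stab1 passed with those (r = 0.88, adjusted permutation p = 0.0259) and with MHC class II genes (r = 0.83, adjusted 0.00288), fibroblast (r = 0.81), mural (r = 0.75) and dendritic cell markers (r = 0.73). Pf4 passed with dendritic cell markers (r = 0.80, adjusted permutation p = 0.0259). Only 3 of the 5 dendritic cell genes passed the filter, so that list rests on few genes. Its summed level ran from 56.8 to 72.4 CPM, and which cells made this RNA was not tested. Its relations with Pf4 and Stab1 are therefore not a measure of dendritic cells. Without the 2 libraries farthest from the median of the list, r in the 10 relations that passed was between 0.57 and 0.78. Their raw p-values lay between 2.0e-05 and 0.0034, and rho between 0.70 and 0.85. The relations were not repeated without the pair of libraries highest in Lyve1.

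No marker passed with the homeostatic microglia list, where r ran from -0.08 for Ms4a7 to 0.47 for Stab1. None passed with the plaque-associated microglia list either, where r ran from 0.23 for Ms4a7 to 0.71 for Mrc1 (adjusted permutation p = 0.0855 for Mrc1). With the pan-macrophage list, where also none passed, r ran from 0.28 for Ms4a7 to 0.79 for Mrc1 (adjusted permutation p = 0.0623 for Mrc1). Pf4 had r = 0.67 with platelet markers (permutation p = 0.0123, adjusted 0.0855, rho = 0.63). That r fell to 0.41 without the 2 libraries farthest from the median of the platelet list. Lyve1 had r = 0.04 with lymphatic endothelial markers (permutation p = 0.899, adjusted 0.951, rho = 0.27). Ccl21a of that list was not detected in any library, and neurons and glia also make Prox1. This r therefore says little about lymphatic cells. The mural, fibroblast and other border macrophage lists thus moved with Mrc1 and Stab1 from library to library. The brain endothelial list came near without passing, at r = 0.74 with Mrc1 and 0.71 with Stab1 (adjusted permutation p = 0.0855 for both). The part of these lists in the spread of the markers was not tested. Summed levels of the fibroblast list ran from 449 to 1323 CPM in WT and from 457 to 982 CPM in APP/PS1, and those of the mural list from 908 to 1468 and from 839 to 1447 CPM.

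A further 26 genes known from border macrophages were listed, of which 22 passed the filter. By genotype over both peptides 0 of 22 passed, against 0.587% of all genes. At an unadjusted p under 0.05 in edgeR's test it was 2 of 22, against 6.38%. The change was above 0 for 18 of 22, against 50.7% of all genes. The 22 were not shown to vary independently, so that share is a description. In the same comparison 8 of 8 pan-macrophage genes and 10 of 10 homeostatic microglia markers were above 0. The median log2 change was 0.18 for the 22 and 0.00 for all genes. Siglec1, the sialic acid receptor of tissue macrophages, had 0.76 ± 0.25 (SE; unadjusted p = 0.00629, adjusted 0.369). Of the most abundant per length, Igfbp4 had -0.11, Dab2 0.02, Ednrb 0.32, Colec12 -0.0022 and Slc40a1, the iron exporter, 0.01; several of these are made by vascular cells too. Ccl8, Cd209d, Ccl24 and Timd4 did not pass the filter and reached at most 10 counts in any library. The 7 MHC class II genes, which mark another subset of border macrophages, had 0 of 7 past the threshold and a median of -0.15; Cd74 was at 6.36 to 34.4 CPM.

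Lists that microglia share moved by genotype in the same fit, where 0.587% of all genes passed. Of 8 pan-macrophage genes 4 rose in APP/PS1, among them Ptprc (1.03 ± 0.12 SE, adjusted p = 4.69e-05), Cd68 (0.95 ± 0.15, adjusted p = 0.00186) and Laptm5 (0.71 ± 0.13, adjusted p = 0.00518), and the list's median was 0.69. Of 10 homeostatic microglia markers 5 rose, with a median of 0.69, among them Siglech (0.72 ± 0.10, adjusted p = 0.000676) and Cx3cr1 (0.78 ± 0.13, adjusted p = 0.00262). Of 12 genes of plaque-associated microglia 8 rose, with a median of 0.95, led by Cst7 (5.51), Clec7a (2.56) and Itgax (3.14). The interval of Mrc1 (-0.37 to 0.41) ended below the medians of these 3 lists, as did those of Cd163, Lyve1, Pf4, F13a1 and Stab1, while those of Ms4a7 and Cbr2 reached 0.69 or more; the difference between a marker and a list was not tested.

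**Figure D4:**
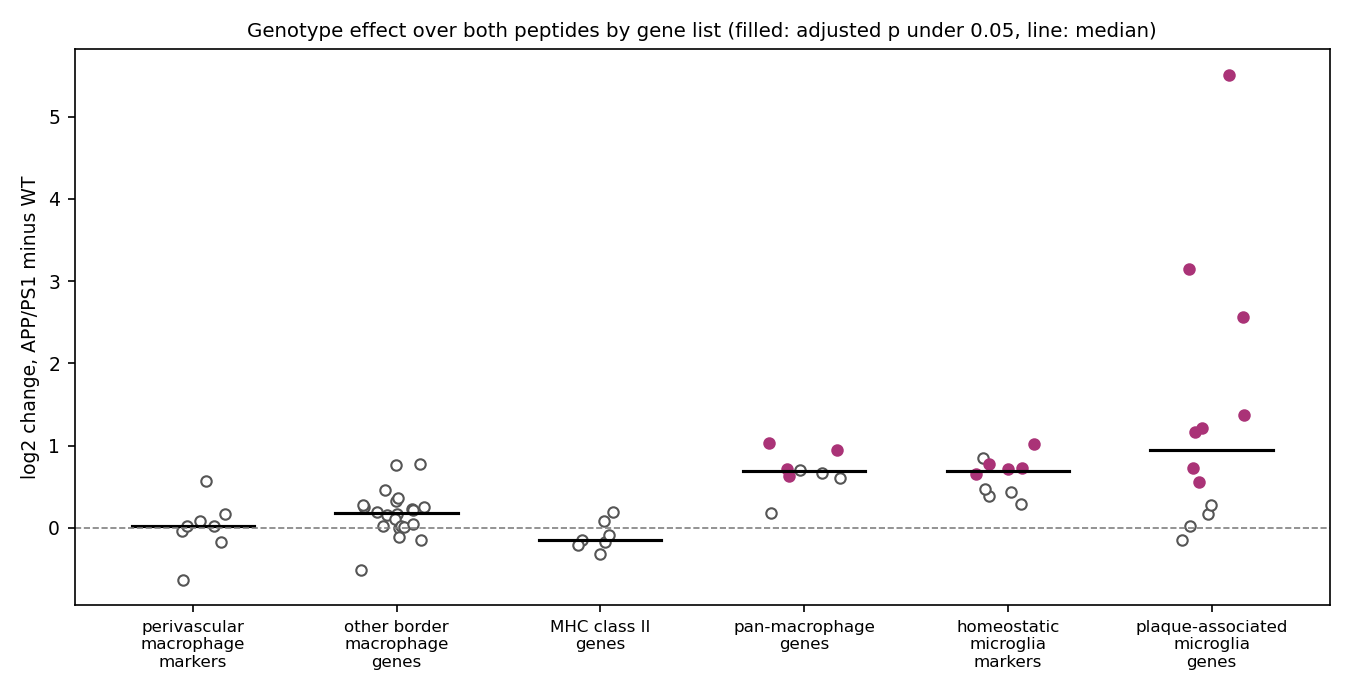
Log2 change by genotype over both peptides (1 point per gene, filled where adjusted p is under 0.05, a line at the median) for the 8 markers and 5 other lists. The 8 markers have 0 filled points and a median of 0.02, the 12 plaque-associated genes 8 filled points and a median of 0.95.

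The monocyte list of 7 genes summed to between 688 and 1223 CPM per library, with a median of 929, and 5 of the 7 passed the filter. Fn1, which encodes fibronectin and which vascular cells and fibroblasts also make, carried nearly all of that sum at 937 ± 182 CPM (SD, n = 17). Among the others Ccr2 averaged 1.29 ± 0.616 CPM and Ly6c2, the first gene of the list, 0.425 ± 0.374 CPM with at least 1 library at 0. The neutrophil list summed to between 1.24 and 12.8 CPM, and its gene S100a8 averaged 0.849 ± 0.791 CPM. Of the lymphocyte list 1 of 6 genes and of the mast cell list 1 of 5 passed the filter; Cd3e averaged 0.402 ± 0.297 CPM, and the lymphatic gene Ccl21a was at 0 in all 17. Mcpt4 of mast cells averaged 0.0733 ± 0.251 CPM and Hbb-bs of red cells 5.23 ± 3.99 CPM. Among the other leading genes of the lists, Csf1r averaged 86.9 ± 26.2 CPM, P2ry12 20.3 ± 6.44, Col1a1 38.7 ± 12.03, Prox1, which neurons and glia also make, 33.3 ± 4.59 and Flt3 21.8 ± 3.13 CPM. By genotype over both peptides, 1 gene of the 15 remaining lists passed, the astrocyte gene Gfap (1.20 on the log2 scale, adjusted p = 0.000125).

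The 10 genes outside the list whose deviations were most like the mean of the 8 markers, over 17 libraries, were Nos1, Abca9, Flt4, Serpinf1, Pecam1, Wnt5a, Col4a3bp, Rnase4, Aldh1a2 and Eif4b, with r from 0.88 to 0.90. They were picked as the highest of many genes, so r is a description. For single markers, the closest gene was F13a1 and Rps23 for Mrc1 (r = 0.93 and 0.94), Ms4a6c for Cd163 (r = 0.92) and Podxl for Pf4 (r = 0.93). Ms4a6c, a border macrophage gene of the MS4A family, was also the closest to F13a1 after Mrc1 (r = 0.90). Alkbh5 was closest to Stab1 (r = 0.96), 4930426I24Rik to Cbr2 (r = 0.86) and Ctcf to Ms4a7 (r = 0.83).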

How the data were processed

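RNA of 17 microvessel libraries was measured by sequencing. The authors deposited counts per Ensembl gene, whole numbers and not normalized; the submitters' processing notes name cutadapt, STAR, HTSeq and DESeq2 and the builds mm10 and GRCh37, with no role or version. The annotation, and whether counting used strand or reads matching several genes, are not given in the sources used here. A further 20 columns matched no sample and were not used. GENCODE vM21 gave symbols to 42250 IDs, not to 437, and exon lengths.

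Counts were filtered with filterByExpr, scaled by TMM and tested with edgeR 4.0.16 (R 4.3.3, quasi-likelihood F test, Benjamini-Hochberg over 18753 genes, threshold 0.05), with 1 mean per group or an additive model of genotype and peptide, all 17 libraries in each fit. SE is the log2 change divided by the square root of F. Log2 CPM used a prior count of 2. The tests were checked on simulated data. A level of 3 counts was taken as the floor; it covers counting error only. Library totals set the precision and lay between 7316503 and 17862965 counts. No batch, sex or pairing is labelled.

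Markers and lists were chosen with earlier results of these data known. Genes named are the 8 markers, App and Prnp, any other border macrophage gene past the threshold and the 5 highest per length, the first gene of each other list, up to 3 genes per list past the threshold for genotype in the macrophage and microglia lists, and the 10 genes most like the mean of the markers and the closest to each; others were chosen after their values were seen. A few genes under this rule are not reported here. Alternatives were DESeq2 size factors, upper quartile factors, other filters, DESeq2 1.42.0, limma-voom (limma 3.58.1), leaving out libraries, and a Y-linked covariate.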

Additional observations from a re-analysis of the deposited data

Results flagged for a closer look

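Lyve1 in replicate 1 of WT with control peptide was far above the other 4 libraries of its group, at a log2 CPM of 3.57 against 1.44 to 1.87. This was 1 flag among 24 sets of marker and group with 4 or more libraries, where chance gives 1.2. The same library was among the 2 highest in Cd163 and in Fkbp5, and lowest in Stab1.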

How the results depend on the processing

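None of the 56 log2 changes of the markers passed the threshold under any of the 1432 values that the alternatives gave, and the smallest adjusted p was 0.255. No paired analysis was possible because the replicate numbers only follow the order of the samples and pair no libraries. The background counts depended more on the tool: DESeq2 called 182 genes by genotype over both peptides, 45 with control peptide and 61 with inhibitor, and the covariate of 4 Y-linked genes 23 with control peptide. Leaving out 1 library at a time gave 70 to 125, 4 to 17 and 15 to 38 genes in these 3 comparisons and 3 to 8 pairs of markers; by Spearman's rho 3 pairs passed. Counts more than 1.5 times apart came without replicate 2 of APP_SC in the first, either APP_SC library or replicate 3 or 4 of WT_SC in the second, and replicate 2 or 4 of APP_NOX2 or replicate 1, 3 or 5 of WT_NOX2 in the third. The fit with only the libraries of the groups compared was not run for the additive and interaction models, which use all groups.

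The covariate and the exclusion of 2 libraries were chosen after seeing the data. A log2 change of a marker changed sign in 93 of 952 values that left out 1 library and in 30 of 480 values of other alternatives, and the cause was not tested. They concerned 40 of the 56 changes, none past the threshold. Without the 2 libraries highest in Lyve1, the sign changed for Cd163 (0.23), Lyve1 (0.023), Pf4 (-0.079) and F13a1 (0.15) under genotype over both peptides, Cd163 (0.29) and Lyve1 (0.0087) under genotype with control peptide, Mrc1 (0.17), Cd163 (0.20), Lyve1 (0.030) and F13a1 (0.13) under genotype with inhibitor, F13a1 (0.00054) under inhibitor in APP/PS1, Cd163 (-0.0060) under inhibitor in WT, Cd163 (-0.048) and Pf4 (-0.026) under inhibitor over both genotypes and Stab1 (0.015) under the interaction. With 4 Y-linked genes as a covariate, the sign changed for Cd163 (0.17) under genotype with control peptide, Mrc1 (-0.092), Lyve1 (-0.044) and Stab1 (-0.031) under inhibitor in APP/PS1, Cd163 (-0.032) under inhibitor over both genotypes and Lyve1 (-0.15) under the interaction. Under limma-voom, the sign changed for Pf4 (-0.012) and Cbr2 (-0.012) under genotype over both peptides, Cd163 (0.034) under genotype with control peptide, Lyve1 (-0.15) and Pf4 (0.046) under inhibitor in WT and Cd163 (-0.013) and Lyve1 (-0.049) under inhibitor over both genotypes. With no filter, the sign changed for F13a1 (0.0051) under inhibitor in APP/PS1. With a minimum of 1 CPM in 5 libraries, the sign changed for F13a1 (0.0040) under inhibitor in APP/PS1.

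Leaving out 1 library at a time, the log2 changes that changed sign ranged as follows. For genotype over both peptides, Cbr2 ran from -0.15 to 0.24, Cd163 from -0.27 to 0.11, F13a1 from -0.11 to 0.12, Mrc1 from -0.054 to 0.13 and Pf4 from -0.13 to 0.12. For genotype with control peptide, Cbr2 ran from -0.098 to 0.96, Cd163 from -0.24 to 0.29, F13a1 from -0.023 to 0.19, Lyve1 from -0.91 to 0.0089, Mrc1 from -0.18 to 0.30, Pf4 from -0.42 to 0.048 and Stab1 from -0.19 to 0.51. For genotype with inhibitor, Cbr2 ran from -0.36 to 0.064, Cd163 from -0.43 to 0.19, F13a1 from -0.25 to 0.13, Lyve1 from -0.85 to 0.031, Mrc1 from -0.13 to 0.17 and Pf4 from -0.078 to 0.33. For the inhibitor in APP/PS1, Cbr2 ran from -0.75 to 0.30, Cd163 from -0.31 to 0.13, F13a1 from -0.11 to 0.13, Mrc1 from -0.15 to 0.33 and Stab1 from -0.22 to 0.48. For the inhibitor in WT, Cd163 ran from -0.31 to 0.46, F13a1 from -0.043 to 0.34, Lyve1 from -0.55 to 0.80, Mrc1 from -0.021 to 0.29 and Pf4 from -0.29 to 0.18. For the inhibitor over both genotypes, Cbr2 ran from -0.027 to 0.36, Cd163 from -0.23 to 0.23, F13a1 from -0.026 to 0.20, Lyve1 from -0.27 to 0.56 and Pf4 from -0.059 to 0.23. For the interaction, Cd163 ran from -0.56 to 0.21, F13a1 from -0.34 to 0.043, Lyve1 from -0.60 to 0.75, Mrc1 from -0.31 to 0.17 and Stab1 from -0.35 to 0.35. Depth limits Cbr2, Pf4, Ms4a7 and Lyve1, which had as few as 5, 11, 15 and 15 counts in a library, and the 2 libraries of APP_SC limit every comparison that uses them.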
